A study of Mus musculus with 6 samples.

Results

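The genes described here encode the Wnt ligands, their Frizzled receptors, the co-receptors Lrp5 and Lrp6, the R-spondins with their receptors Lgr4, Lgr5 and Lgr6, and the secreted inhibitors of the Sfrp, Dkk and Wif1 families. Members were chosen by symbol in the platform annotation, with the brightest probe on average taken for each gene. The choice gave 47 genes on 54 probes, of 17742 genes measured. They were 19 Wnt ligands, 10 Frizzleds, 5 co-receptors and R-spondin receptors, 4 R-spondins and 9 secreted inhibitors.

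Wnt proteins are secreted lipid-modified signals that bind a Frizzled together with Lrp5 or Lrp6 and stabilise beta-catenin, or act through other receptors on cell polarity and movement. R-spondins bind Lgr receptors and keep Frizzleds at the cell surface, while Sfrp and Wif1 proteins bind Wnts and Dkk1, Dkk2 and Dkk4 block Lrp5 and Lrp6. In the female tract Wnt signals pattern the Müllerian duct and the uterine glands, and in ovary they act in follicle and corpus luteum. In brain they act in axon guidance and synapse formation.

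RNA of female BALB/c mice was hybridised to 6 arrays read in 1 colour (Cy5). The labels give 6 groups of 1 array each. In order they are SHT brain and mock brain, SHT ovary and mock ovary, and SHT uterus and mock uterus. SHT stands for Sheng-Hua-Tang, an herbal preparation given orally at 200 mg/kg over 7 days, and mock mice had no treatment. The labels give neither the age nor the number of mice behind an array, nor whether tissues came from the same mice. With 1 array in a group no difference between 2 labelled arrays has a replicate check, and values are deposited intensities without an error.

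On 4 of the 6 arrays, marker genes did not match the labelled tissue. All 7 neuron markers measured were above background on SHT ovary and mock brain and 0 of 7 on SHT brain, where their summed intensity was 719 against 144474 on mock brain. Of 11 granulosa and oocyte markers, 10 were above background on SHT brain and on mock uterus, and 2 or 3 on each other array. Squamous epithelium markers were above background in 10 of 10 on SHT uterus and mock ovary and in 4 or 5 on each other array. Uterine markers numbered 10 of 12 on SHT uterus, 8 on mock uterus, 10 on SHT brain, 9 on mock ovary and 4 each on SHT ovary and mock brain. Each array is therefore named by its label alone ("SHT brain" means the array labelled so), and tissue and treatment cannot be told apart in any difference below. Each labelled pair holds at least 1 of the 4 arrays, so none of the differences can be given without them. In bulk tissue, fewer cells of a type and less RNA per cell cannot be told apart.

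The background limit of an array is the 95th percentile of its 529 olfactory receptor genes, a family used chiefly in the nose, and lay at 275 on SHT brain, 541 on mock brain, 403 on SHT ovary, 312 on mock ovary, 318 on SHT uterus and 295 on mock uterus. Of the 47 Wnt genes, 32 were above the limit on at least 1 array and 8 on all 6, while 66.0% of all genes were above it on at least 1. By array the count was 24 on SHT brain, 13 on mock brain, 15 on SHT ovary, 24 on mock ovary, 25 on SHT uterus and 23 on mock uterus. These are 27.7% to 53.2% of the Wnt genes, beside 44.2% to 55.3% of all genes. The 2 arrays with the fewest, mock brain and SHT ovary, were those with all neuron markers and also those with the highest limits. The other 15 genes were under the limit everywhere. They were Wnt1, Wnt3a, Wnt4, Wnt8a, Wnt8b, Wnt10b, Wnt11, Wnt16, Fzd4, Fzd9, Lrp6, Rspo4, Dkk1, Dkk4 and Wif1. All but Fzd4 had only 1 probe. A probe that does not register its gene reads the same as a gene without RNA, and these were not told apart. Nearest to the limit were Wnt3a below it, at 0.944 times the limit of mock ovary, and Wnt3 and Wnt9b above it, at 1.02 and 1.03 times the limits of mock uterus and SHT brain.

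**Figure D1:**
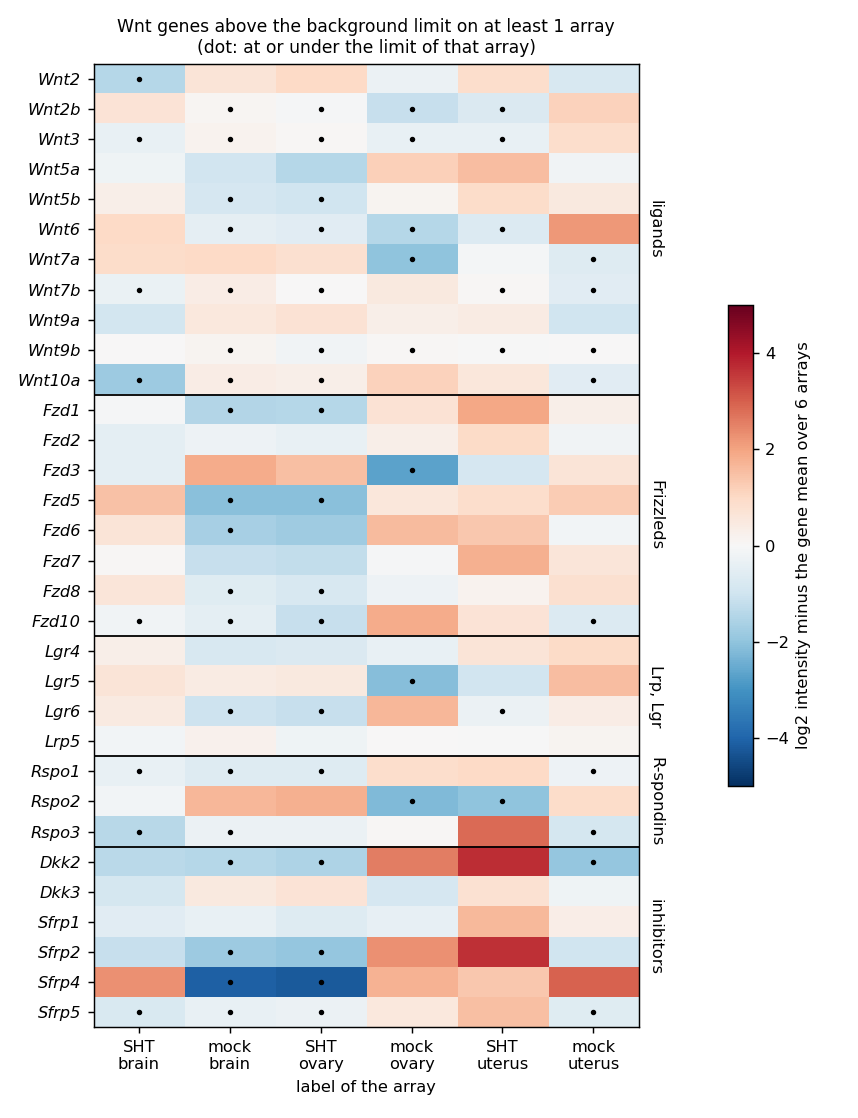
Log2 intensity of each of the 32 Wnt genes above the background limit on at least 1 array (rows, grouped by role), minus that gene's mean over the 6 arrays (columns, by label). Black dots mark values at or under the limit of the array. Dkk2 and Sfrp2 are reddest on SHT uterus and mock ovary, and Sfrp4 is bluest on mock brain and SHT ovary.

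Among the ligands, 11 of 19 were above the limit on at least 1 array, and the high arrays differed from ligand to ligand. Wnt5a, a ligand best known for signalling that does not use beta-catenin, read 1895 on SHT brain, 1143 on mock brain, 814 on SHT ovary, 5042 on mock ovary, 6406 on SHT uterus and 1962 on mock uterus. It was above the limit on every array and highest on SHT uterus and mock ovary, and the lower of these 2 exceeded each of the other 4 at least 2.57-fold. Wnt9a read 1216 on SHT brain, 3325 on mock brain, 3819 on SHT ovary, 2806 on mock ovary, 3083 on SHT uterus and 1152 on mock uterus. It too was above the limit everywhere, with its 2 lowest values on SHT brain and mock uterus. Wnt2 read 218 on SHT brain, 931 on mock brain, 1170 on SHT ovary, 481 on mock ovary, 1088 on SHT uterus and 339 on mock uterus, with SHT brain alone under the limit.

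Wnt6, a ligand made by epithelia, read 769 on SHT brain, 284 on mock brain, 263 on SHT ovary, 144 on mock ovary, 240 on SHT uterus and 1746 on mock uterus. Only SHT brain and mock uterus, the 2 arrays with granulosa and oocyte markers, were above the limit. Wnt2b had the same 2 arrays on top, with 449 on SHT brain and 621 on mock uterus. Wnt10a, a ligand of skin and its appendages, read 92.5 on SHT brain, 421 on mock brain, 401 on SHT ovary, 741 on mock ovary, 494 on SHT uterus and 223 on mock uterus. It was above the limit on SHT uterus and mock ovary, the 2 arrays with all squamous markers, and just under it on SHT ovary. The squamous list summed to 241543 on SHT uterus and 384714 on mock ovary, against 5891 to 8175 on the other 4. The part of squamous tissue in this value was not tested.

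Wnt7a, the epithelial ligand that the developing oviduct and uterus require, read 654 on SHT brain, 700 on mock brain, 616 on SHT ovary, 87.8 on mock ovary, 329 on SHT uterus and 223 on mock uterus. Mock ovary and mock uterus were under the limit, and SHT uterus was barely above it. Wnt5b read between 162 on SHT ovary and 603 on SHT uterus, and passed the limit on SHT brain, mock ovary, SHT uterus and mock uterus. Wnt3, Wnt7b and Wnt9b passed on 1 array each, at 302 on mock uterus, 360 on mock ovary and 284 on SHT brain. Wnt4, which directs formation of the Müllerian duct and of the ovary, read between 64.7 and 172 on its only probe and was within background on every array. Wnt1, Wnt3a and Wnt10b reached 423, 295 and 201, and Wnt8a, Wnt8b, Wnt11 and Wnt16 reached 16.4 to 136.

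Several Wnt genes are neighbours in the genome, and 4 such pairs were on the array, by gene order in the RefSeq table of assembly GRCm38.p6. They are Wnt6 with Wnt10a, Wnt3a with Wnt9a, Wnt9b with Wnt3, and Wnt10b with Wnt1. Wnt6 and Wnt10a were high on different arrays, Wnt6 on SHT brain and mock uterus and Wnt10a on SHT uterus and mock ovary. Wnt9a was above the limit on every array and Wnt3a on none. Both genes of the pair of Wnt10b and Wnt1 were within background throughout.

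The Frizzleds bind Wnts through a cysteine-rich domain, and 8 of 10 were above the limit on at least 1 array. Fzd6, a receptor of planar polarity and hair patterning, read 2420 on SHT brain, 496 on mock brain, 458 on SHT ovary, 4750 on mock ovary, 4022 on SHT uterus and 1415 on mock uterus. Its lowest values were on mock brain and SHT ovary. Fzd7 read 2383 on SHT brain, 1047 on mock brain, 988 on SHT ovary, 2222 on mock ovary, 7907 on SHT uterus and 3514 on mock uterus, and Fzd1 read 628 on SHT brain, 240 on mock brain, 248 on SHT ovary, 1085 on mock ovary, 2542 on SHT uterus and 807 on mock uterus. Both were highest on SHT uterus and lowest on the 2 arrays with all neuron markers, where Fzd7 was still above the limit and Fzd1 was not. Fzd3, which guides axons, ran the other way and read 676 on SHT brain, 3421 on mock brain, 2735 on SHT ovary, 149 on mock ovary, 527 on SHT uterus and 1490 on mock uterus. It was highest on mock brain and SHT ovary, intermediate on mock uterus, and under the limit on mock ovary.

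Fzd2 read 559 on SHT brain, 655 on mock brain, 597 on SHT ovary, 950 on mock ovary, 1515 on SHT uterus and 692 on mock uterus, above the limit on every array and over a range narrower than that of Fzd1. Fzd10 read 196 on SHT brain, 157 on mock brain, 99.003 on SHT ovary, 798 on mock ovary, 358 on SHT uterus and 136 on mock uterus, with only mock ovary and SHT uterus above the limit. Fzd5 was above it on SHT brain, mock ovary, SHT uterus and mock uterus, between 382 and 702, and read 60.0 on mock brain and 60.8 on SHT ovary. Fzd8 was above it on the same 4 arrays, between 473 and 982. Fzd9 reached 352 on mock brain and Fzd4 reached 20.0 on mock uterus, both within background.

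In 6 Frizzleds more than 1 probe was present. A second probe that was itself above the limit was present only for Fzd2 and Fzd10, and had the same 2 highest arrays as the first. The other Fzd2 probe read 867 on SHT uterus and 853 on mock ovary, against 713 or less elsewhere, and the other Fzd10 probe read 295 on SHT uterus and 702 on mock ovary, against 86.2 or less elsewhere. The other Fzd3 probe read between 7.94 and 17.7 on all 6 arrays and thus did not register the differences seen with the brighter one. The other probes of Fzd5 and Fzd8 were likewise within background, at up to 48.1 and 57.6.

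Lrp5, a co-receptor that carries the Wnt signal to beta-catenin, was above the limit on every array and read between 488 on SHT ovary and 656 on mock brain. Among the 8 genes above the limit on all arrays it varied least. Lrp6 was within background on its only probe, with 93.6 as its highest value. Of the R-spondin receptors, Lgr4 read 3353 on SHT brain, 1569 on mock brain, 1663 on SHT ovary, 2113 on mock ovary, 4292 on SHT uterus and 5249 on mock uterus. Lgr5, known as a marker of epithelial stem cells, read 1369 on SHT brain, 1154 on mock brain, 1218 on SHT ovary, 201 on mock ovary, 452 on SHT uterus and 2556 on mock uterus. Mock uterus was highest for both, and mock ovary was the only array on which Lgr5 was within background. Lgr6 read 362 on SHT brain, 130 on mock brain, 117 on SHT ovary, 835 on mock ovary, 215 on SHT uterus and 342 on mock uterus. It was highest on mock ovary, with SHT brain and mock uterus just above the limit.

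Of the 4 R-spondins, which amplify Wnt signals, 3 were above background on at least 1 array. Rspo1, which is required for ovarian fate in the embryo, read 217 on SHT brain, 181 on mock brain, 181 on SHT ovary, 518 on mock ovary, 554 on SHT uterus and 235 on mock uterus. Only SHT uterus and mock ovary were above the limit. Rspo2 read 301 on SHT brain, 1035 on mock brain, 1150 on SHT ovary, 71.1 on mock ovary, 81.5 on SHT uterus and 632 on mock uterus. It was high on SHT ovary and mock brain, lower on mock uterus and SHT brain, and within background on SHT uterus and mock ovary. Rspo3, needed for blood vessel growth in the mouse embryo, read 201 on SHT brain, 422 on mock brain, 419 on SHT ovary, 538 on mock ovary, 3660 on SHT uterus and 283 on mock uterus. SHT uterus stood at least 6.76-fold above each other array, with values under a limit raised to it. Rspo4 did not exceed 15.9.

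The secreted inhibitors held the greatest ranges. Dkk2, which binds Lrp5 and Lrp6, read 365 on SHT brain, 345 on mock brain, 321 on SHT ovary, 5512 on mock ovary, 12014 on SHT uterus and 242 on mock uterus. Sfrp2, a soluble protein with a Frizzled-like Wnt-binding domain, read 574 on SHT brain, 358 on mock brain, 329 on SHT ovary, 6172 on mock ovary, 15908 on SHT uterus and 635 on mock uterus. For both genes SHT uterus and mock ovary stood at least 10.2-fold and 9.73-fold above each of the other 4 arrays. Of these 4, Dkk2 was above the limit only on SHT brain, and Sfrp2 on SHT brain and mock uterus. The same 2 arrays held all squamous epithelium markers. Smooth muscle markers were above background in 4 of 5 on these arrays and also on SHT brain and mock uterus, and summed to 85172 on SHT uterus and 92801 on mock ovary, against 50629 on SHT brain, 52448 on mock uterus and 3365 or less on mock brain and SHT ovary. Uterine epithelium and stroma markers summed to 184009 on SHT uterus and 79148 on mock ovary. On SHT brain they summed to 127822, on mock uterus to 29667 and on mock brain and SHT ovary to 6544 or less. The part of these cell types in the Dkk2 and Sfrp2 values was not tested.

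The 250 bases before the start of Dkk2, Sfrp2 and Fzd1, 3 of the 11 genes that had SHT uterus and mock ovary as their 2 highest arrays, are shown to let the regions be compared. They are RefSeq sequence of build GRCm38.p6, printed 5′ to 3′ on the strand of the gene. Capitals mark GC boxes (GGGCGG on either strand) and TATA boxes (TATAAA on the gene's strand). Dkk2 lies at chr3:132085042-132085291 (+), Sfrp2 at chr3:83766071-83766320 (+) and Fzd1 at chr5:4758217-4758466 (-).
Dkk2: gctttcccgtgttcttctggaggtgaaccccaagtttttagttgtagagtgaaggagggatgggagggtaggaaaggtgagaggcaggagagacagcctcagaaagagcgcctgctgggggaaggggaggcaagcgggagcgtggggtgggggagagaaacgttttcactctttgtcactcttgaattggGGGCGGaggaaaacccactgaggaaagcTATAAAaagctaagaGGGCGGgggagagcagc
Sfrp2: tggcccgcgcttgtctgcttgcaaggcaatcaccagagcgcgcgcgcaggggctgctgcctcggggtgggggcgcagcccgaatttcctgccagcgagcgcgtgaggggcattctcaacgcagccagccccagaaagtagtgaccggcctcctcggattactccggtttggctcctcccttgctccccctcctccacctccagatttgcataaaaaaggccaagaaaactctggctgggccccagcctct
Fzd1: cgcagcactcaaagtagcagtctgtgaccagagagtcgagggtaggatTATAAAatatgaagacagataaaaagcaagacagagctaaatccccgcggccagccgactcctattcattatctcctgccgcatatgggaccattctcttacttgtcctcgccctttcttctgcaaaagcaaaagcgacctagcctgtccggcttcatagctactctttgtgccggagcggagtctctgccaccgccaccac
Dkk2 held 2 GC boxes and 1 TATA box, Fzd1 held 1 TATA box and no GC box, and Sfrp2 held neither. None of the 3 held a TCF/LEF motif, spelled CTTTG followed by AA, AT, TA or TT, on either strand. Such a match is a description of letters, not a site. Windows were present for 30 of the 47 Wnt genes, 33 windows in all. A GC box was in 69.7% of these and in 42.6% of 21263 windows of protein-coding genes, a TATA box in 12.1% and 7.67%, and a TCF/LEF motif in 12.1% and 13.2%. Their median GC content was 66.8%, against 55.6% for protein-coding genes, and GC boxes follow GC content.

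Sfrp4, another soluble Wnt-binding protein, read 11004 on SHT brain, 134 on mock brain, 125 on SHT ovary, 7577 on mock ovary, 5755 on SHT uterus and 17832 on mock uterus. It was high on the 4 arrays that lack the full neuron list and within background on mock brain and SHT ovary. On the highest 2, mock uterus and SHT brain, all 4 theca and luteal markers were above background and summed to 115030 and 96132, against 918 or less on the other 4 arrays. On SHT uterus and mock ovary, where Sfrp4 read 5755 and 7577, 1 of the 4 markers was above background. Adipocyte markers were above background in 5 of 5 on mock uterus and in 4 on SHT brain, mock ovary and SHT uterus. They summed to 72009, 44259, 31048 and 39900 on these arrays, against 840 or less on mock brain and SHT ovary. Mesothelium markers numbered 4 of 5 on mock uterus and SHT brain, 3 on SHT uterus and mock ovary and 0 on the others. The part of these cell types in the Sfrp4 values was not tested. Sfrp1 read 1916 on SHT brain, 2248 on mock brain, 1850 on SHT ovary, 2158 on mock ovary, 8920 on SHT uterus and 3661 on mock uterus. Sfrp5 read 141 on SHT brain, 189 on mock brain, 195 on SHT ovary, 350 on mock ovary, 687 on SHT uterus and 158 on mock uterus, with only SHT uterus and mock ovary above the limit.

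Dkk3, a divergent family member for which Lrp5 and Lrp6 are not the usual partners, read 6348 on SHT brain, 16455 on mock brain, 18908 on SHT ovary, 6603 on mock ovary, 19706 on SHT uterus and 9955 on mock uterus. It was far above background on every array, with its lowest values on SHT brain and mock ovary. Dkk1, the best-known Lrp6 blocker, stayed at 10.3 or below, Dkk4 at 26.9 or below and Wif1 at 173 or below.

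**Figure D2:**
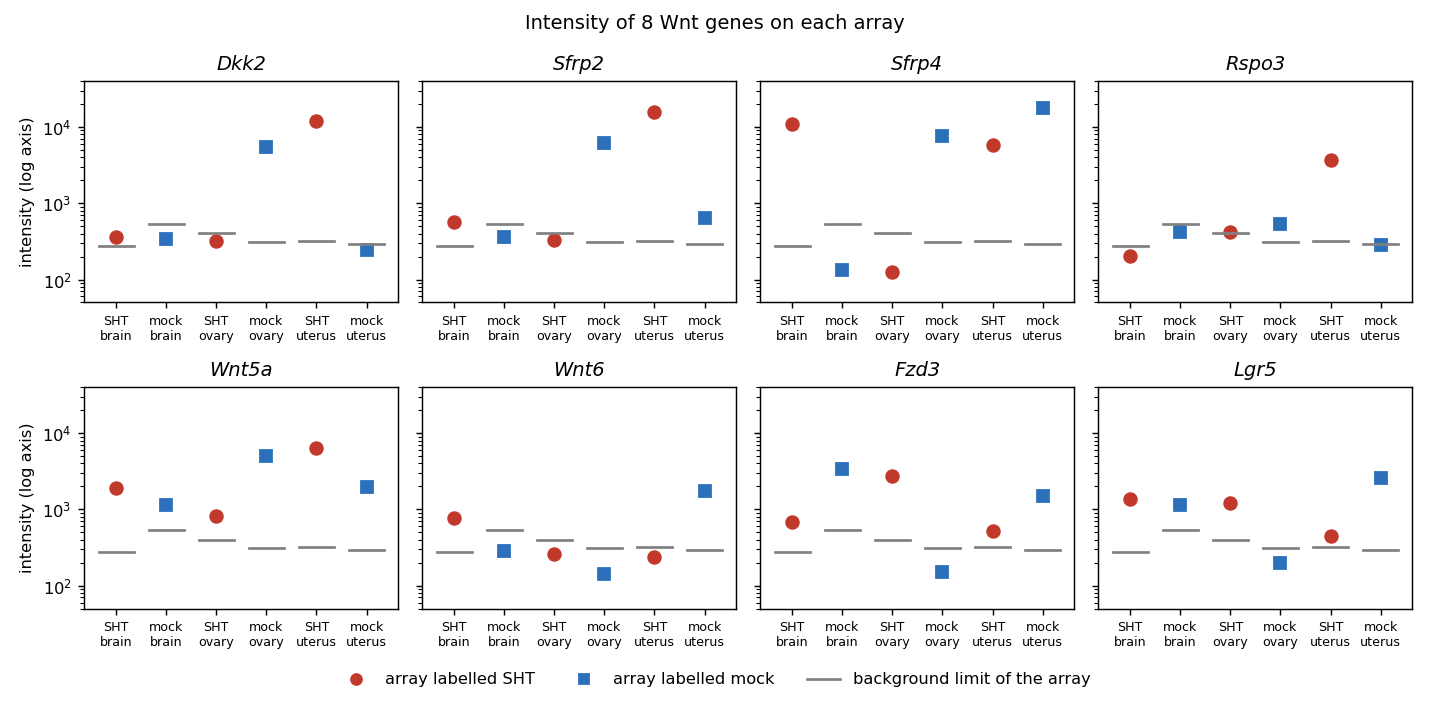
Intensity (log axis) of 8 Wnt genes on each array, by label, with circles for SHT, squares for mock and grey bars for the background limit of the array. Dkk2 and Sfrp2 share SHT uterus and mock ovary as their high arrays, Rspo3 is high on SHT uterus alone, and Fzd3 is highest on mock brain and SHT ovary.

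To describe the patterns without grouping arrays, the 2 arrays with the highest values were recorded for each gene above the limit on at least 1 array. SHT uterus and mock ovary were the 2 highest for 11 of 32 Wnt genes (34.4%), beside 14.9% of 11704 genes. The 11 were Wnt5a, Wnt10a, Fzd1, Fzd2, Fzd6, Fzd10, Rspo1, Rspo3, Dkk2, Sfrp2 and Sfrp5. SHT ovary and mock brain were the 2 highest for 3 Wnt genes (9.38%), Wnt9a, Fzd3 and Rspo2, beside 28.2% of all genes. SHT brain and mock uterus were highest for 6 (18.8%), Wnt2b, Wnt6, Fzd5, Fzd8, Lgr5 and Sfrp4, beside 15.5%. SHT uterus and mock uterus were highest for 4, Wnt5b, Fzd7, Lgr4 and Sfrp1, beside 20.1% of all genes. Of the other 8, Wnt2 and Dkk3 were highest on SHT ovary and SHT uterus (1.9% of all genes), Lrp5 on mock brain and mock uterus (2.84%) and Wnt7a on SHT brain and mock brain (0.632%).

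Such a rank can rest on values within background. For 11 of the 32 Wnt genes the 2 highest arrays were not both above every limit that bears on them, and which 2 were highest is not measured. They were Wnt3, Wnt7b, Wnt9b and Lgr6, not ranked above, Wnt2b and Wnt5b, and 5 of the 11 genes placed on SHT uterus and mock ovary, Wnt10a, Fzd10, Rspo1, Rspo3 and Sfrp5. The single highest array can still be measured, as for Rspo3, where SHT uterus was at least 6.76-fold above each other array. Among the 21 Wnt genes whose pair stood above its own limits and those of the other 4 arrays, SHT uterus and mock ovary were highest for 6 (28.6%), beside 13.8% of 9789 such genes. SHT brain and mock uterus were highest for 5 (23.8%, beside 14.3%), SHT ovary and mock brain for 3 (14.3%, beside 31.6%) and SHT uterus and mock uterus for 3 (14.3%, beside 20.6%). This restriction was chosen after seeing the data. It sets no least gap, and the lower of the 2 arrays was only 1.06-fold above the next for Wnt7a and 1.08-fold for Wnt9a.

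In 3 of the 32 Wnt genes, Dkk2, Sfrp2 and Wnt5a, the lower of the 2 highest arrays was also at least 2-fold above each of the other 4. All 3 had SHT uterus and mock ovary as that pair, beside 2.43% of all genes with the same pair and 16.5% with any pair. The 3 Wnt genes highest on SHT ovary and mock brain were less than 2-fold above the next array, while 12.3% of all genes had those 2 arrays at least 2-fold above the rest. These shares describe 6 arrays and carry no test.

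**Figure D3:**
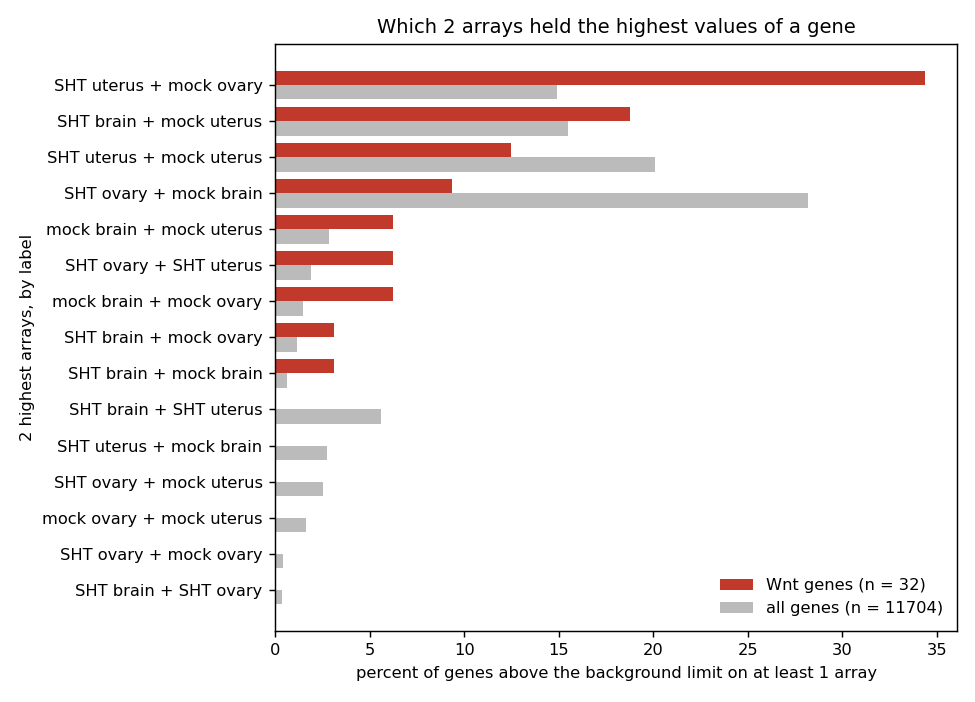
Share of genes whose 2 highest values lay on each pair of arrays, for 32 Wnt genes (red) and for 11704 genes (grey) above the background limit on at least 1 array. The bar for SHT uterus and mock ovary is 34.4% for Wnt genes and 14.9% for all genes, and that for SHT ovary and mock brain is 9.38% and 28.2%. For 11 of the 32 Wnt genes the rank includes values not separated from background.

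The study's own comparison was SHT with mock in each tissue. A gene was called higher or lower when the SHT array differed at least 2-fold from the mock array, relative to the median gene of the pair. The brighter array had to be above its limit, and a dimmer value under its limit was raised to it, which makes the fold a lower bound ("at least"). The median gene differed by -0.12, 0.13 and -0.02 on the log2 scale in the pairs labelled brain, ovary and uterus. Over the 3 pairs, 22 of the 47 genes (46.8%) were called at least once, beside 35.4% of 17742 genes, and 6 (12.8%) in every pair, beside 3.69%.

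In the pair labelled brain, Sfrp4 and 3 receptors were higher and Fzd3, Rspo2 and 3 other secreted proteins lower on the SHT array. Of 25 Wnt genes above the limit on either array, 4 were higher (16%, beside 19.3% of 10604 genes) and 5 lower (20%, beside 21.4%). Sfrp4 was at least 22.1-fold higher, Fzd6 at least 4.85-fold, Fzd7 2.47-fold and Lgr4 2.32-fold. Fzd3 was 4.67-fold lower, Rspo2 3.17-fold, Wnt2 at least 3.12-fold, Wnt9a 2.52-fold and Dkk3 2.39-fold. The SHT array held 0 of the 7 neuron markers, 10 of 11 granulosa and oocyte markers and 4 of 5 adipocyte markers, the mock array 7, 2 and 0, and their part in these differences was not tested. The shares called were close to those of all genes. With the limit at the 99th percentile Wnt2 (-0.58 on the log2 scale) and Rspo2 (-0.73) were no longer called, nor was Fzd3 (-0.90) with its probes averaged. As read, genes within background included, the median log2 difference of the 47 was -0.02. For the 25 above the limit on either array, with limits applied, it was -0.11, beside -0.05 for all such genes.

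In the pair labelled ovary, 10 Wnt genes were lower on the SHT array, Sfrp4, Sfrp2, Dkk2 and Fzd6 foremost, and 5 were higher. They were among 28 above the limit on either array, which made 35.7% lower (beside 20.3% of 10449 genes) and 17.9% higher (beside 22% of genes). Sfrp4 was at least 20.6-fold lower, Sfrp2 at least 16.8-fold, Dkk2 at least 14.97-fold, Fzd6 11.3-fold and Wnt5a 6.77-fold. Fzd1, Fzd7, Lgr6, Fzd10 and Wnt10a were also lower, by 2.01-fold to 2.95-fold, all of them lower bounds except that of Fzd7, 2.46-fold. Fzd3 was at least 8.01-fold higher, Lgr5 at least 3.57-fold, Rspo2 at least 3.37-fold, Dkk3 2.62-fold and Wnt2 2.22-fold. The SHT array held 7 of 7 neuron markers (summed intensity 153238) and the mock array 4 (5064). Squamous markers numbered 4 of 10 (8175) on the SHT array and 10 (384714) on the mock array, uterine markers 4 and 9 of 12, smooth muscle markers 2 and 4 of 5 and adipocyte markers 0 and 4 of 5. Their part in these differences was not tested. With the limit at the 99th percentile 7 of these 15 were no longer called, Wnt2 (0.62), Lgr5 (0.68), Rspo2 (0.60), Wnt10a (-0.23), Fzd1 (-0.78), Fzd10 (-0.34) and Lgr6 (-0.40), nor was Fzd3 (0.28) with its probes averaged. As read, genes within background included, the median log2 difference of the 47 was -0.38. For the 28 above the limit on either array, with limits applied, it was -0.42, beside 0.03 for all such genes.

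In the pair labelled uterus, 13 Wnt genes were higher on the SHT array, with Dkk2, Sfrp2 and Rspo3 foremost, and 4 were lower. Of 30 above the limit on either array, this was 43.3% higher (beside 12.6% of 10658 genes) and 13.3% lower (beside 7.42%). Dkk2 was at least 41.2-fold higher, Sfrp2 25.4-fold and Rspo3 at least 12.5-fold. Wnt5a, Wnt2, Fzd1, Fzd6, Wnt9a, Sfrp1, Sfrp5, Fzd7, Fzd2 and Dkk3 were 2.002-fold to 3.30-fold higher, with only the Sfrp5 value, 2.35-fold, a lower bound. Lgr5 was 5.59-fold lower, Wnt6 at least 5.42-fold, Sfrp4 3.06-fold and Fzd3 2.79-fold. By role, 4 of 10 Frizzleds, 5 of 9 inhibitors and 3 of 19 ligands were higher. Of these 3 roles, 2 Frizzleds, 3 inhibitors and 10 ligands were within background on both arrays and could not be called. The SHT array held 10 of 10 squamous and 2 of 11 granulosa and oocyte markers, the mock array 4 and 10. Their part in these differences was not tested. Calls were lost for Wnt2 (0.93) and Sfrp5 (0.27) with the limit at the 99th percentile, for Fzd2 (0.72) with its probes averaged and for Dkk3 (0.92) after quantile normalization, and Fzd3 with its probes averaged was at 0.16. As read, genes within background included, the median log2 difference of the 47 was 0.20. For the 30 above the limit on either array, with limits applied, it was 0.60, beside 0.06 for all such genes.

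**Figure D4:**
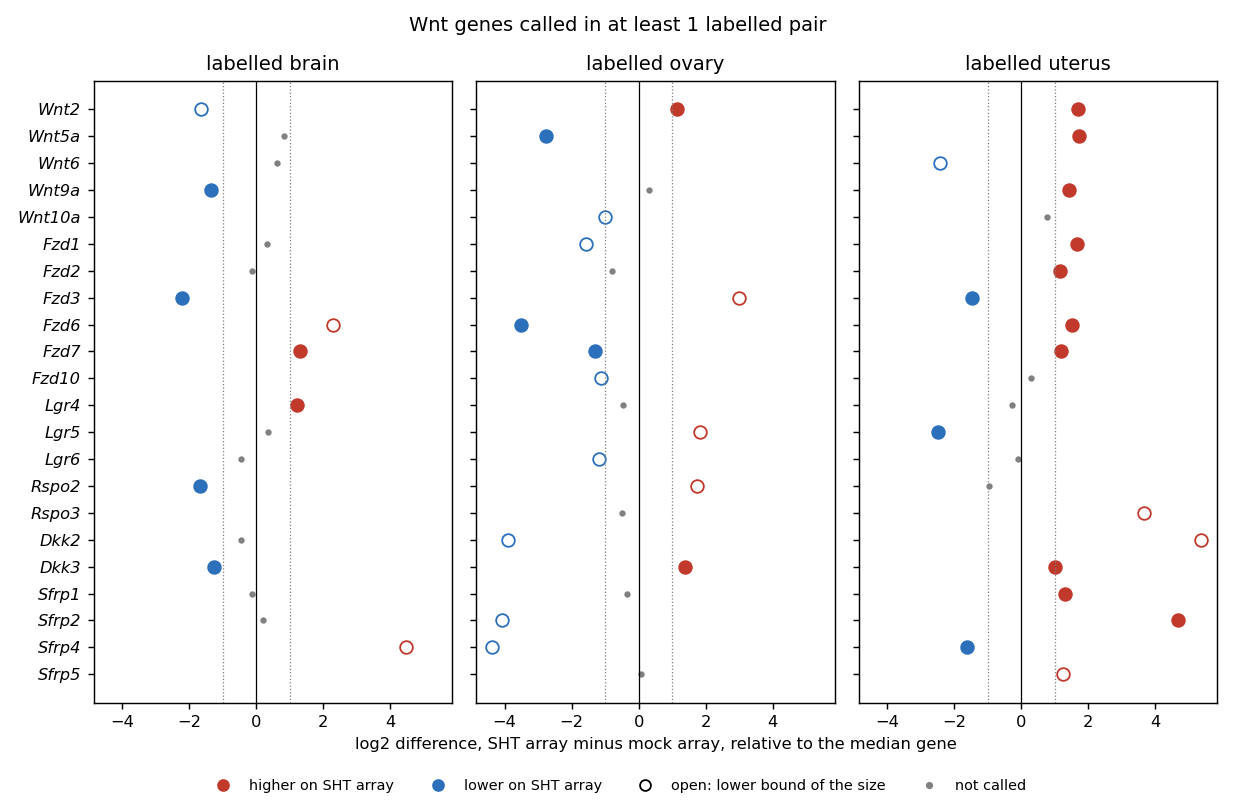
Log2 difference between the SHT and the mock array of each label, relative to the median gene, for the 22 Wnt genes called in at least 1 pair. Open circles are lower bounds of the size, small grey points are not called, and dotted lines mark 2-fold. Sfrp4, Fzd3 and Fzd6 lie on opposite sides of 0 in the pairs labelled brain and ovary.

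No Wnt gene was called in the same direction in all 3 pairs, beside 0.0171% of the 11704 genes above the limit on at least 1 array. Of the 32 Wnt genes above it, 13 were called higher in 1 pair and lower in another, beside 33.1% of the 11704 genes. SHT ovary was most like mock brain, SHT brain most like mock uterus and SHT uterus most like mock ovary (correlations 0.996, 0.981 and 0.972). The 3 SHT minus mock differences of a gene add up to its differences within these alike pairs, which were small for most genes. A single direction in all 3 labelled pairs was thus nearly impossible for any gene, and these counts show no trait of Wnt genes or of SHT. The average SHT effect was fitted with limma over all 6 arrays with labelled tissue as a block, on 10754 genes. Of the Wnt genes, 32 passed its filter on mean intensity, which is not the same choice as the background limit. In this fit 0 of these 32, and 0% of all genes, had a Benjamini-Hochberg adjusted p under 0.05. At an unadjusted p under 0.05 there were 0 Wnt genes and 4 genes in all. Wnt7a had the smallest p of the Wnt genes, with a log2 average of 1.09 (SE 0.80, adjusted p = 0.999964 by limma over 3 labelled pairs). The fit measures spread between labelled tissues, not between mice, and with profiles that go against 4 labels a missing call does not show that SHT had no effect. It tests the average of the 3 differences, which by the sum above was near 0 for most genes while the differences were often large. With these arrays the fit could hardly call any gene, so no conclusion about SHT is drawn from it.

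All 15 pairs of arrays were then set side by side, to see how far apart arrays were in these genes, with folds relative to the median gene of the pair. Between SHT ovary and mock brain, whose log2 intensities correlated at 0.996 over all probes, 0 of 15 measurable Wnt genes differed 2-fold, beside 0.0585% of all genes. In the 13 above the limit on both, the greatest fold was 1.34. Between SHT brain and mock uterus (0.981), 2 of 26 differed, Wnt7a and Fzd6, at least 2.63-fold and 2.03-fold higher on SHT brain, beside 5.92% of all genes. Between SHT uterus and mock ovary (0.972), 7 of 27 differed (25.9%, beside 9.55%). Rspo3, Sfrp1, Fzd7, Dkk3 and Sfrp2 were 5.39-fold, 3.28-fold, 2.82-fold, 2.36-fold and 2.04-fold higher on SHT uterus, while Lgr6 was at least 3.31-fold and Fzd10 2.81-fold lower.

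In the 4 further pairs among SHT brain, mock ovary, SHT uterus and mock uterus, 38.7% to 56.7% of the measurable Wnt genes differed 2-fold, beside 16.6% to 24% of all genes. In the 8 pairs of one of these arrays with mock brain or SHT ovary the share was 36% to 57.7% of Wnt genes, beside 38.8% to 42.3% of all genes. The smallest, 36%, was that of SHT brain with mock brain (beside 40.7%). The greatest Wnt share, 57.7%, was that of SHT uterus with SHT ovary (beside 41.9%) and with mock brain (beside 41.2%), and SHT ovary with mock uterus gave 52% (beside 39.5%). In each of these 4 pairs the Wnt share was above that of all genes, and in the 8 pairs it lay on either side of it. The pairs share arrays, and no difference in share was tested.

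**Figure D5:**
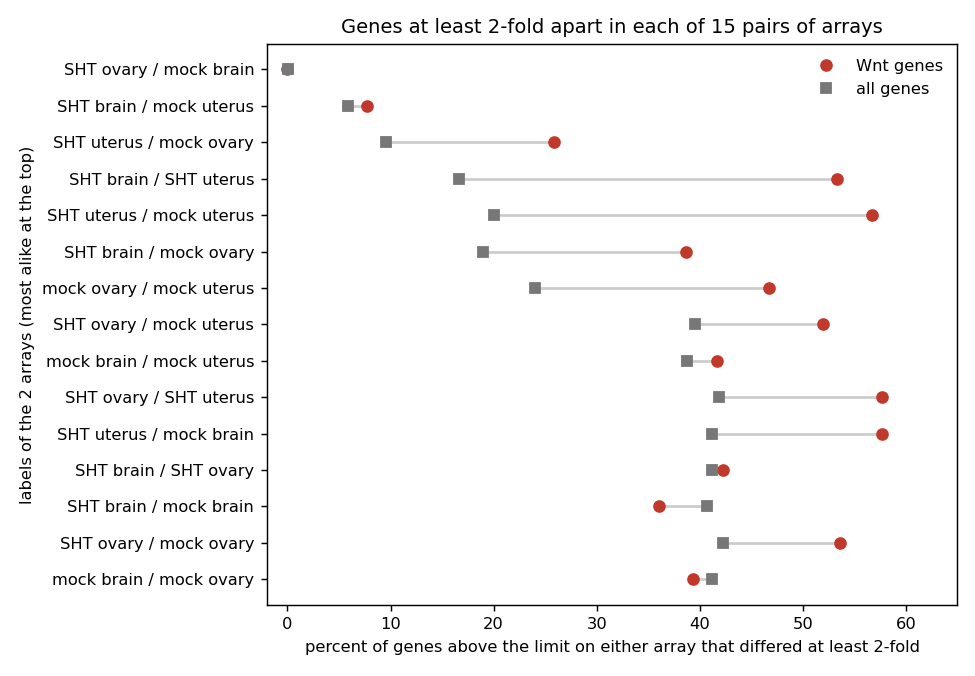
Percent of genes above the background limit on either array that differed at least 2-fold, for Wnt genes (red circles) and all genes (grey squares), in each of 15 pairs of arrays ordered by their correlation. For SHT uterus with mock uterus the values are 56.7% for Wnt genes and 20% for all genes, and for SHT ovary with mock brain 0% and 0.0585%.

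Other genes of the pathway were taken from 4 lists, which share some genes. In each, genes are counted among those above the limit on either array of a pair, the base on which 19.3% of all genes were higher and 21.4% lower in the pair labelled brain, 22% and 20.3% in that labelled ovary, and 12.6% and 7.42% in that labelled uterus. SHT ovary and mock brain, the arrays with all neuron markers, were nearly alike (correlation 0.996). A gene higher on both than on SHT brain and mock ovary reads lower in the pair labelled brain and higher in that labelled ovary. A gene lower on both reads the reverse. Such opposite differences are not separate results, and the part of cell types in them was not tested. Among receptor partners and ligand handling genes (20 measured), 7 of 16 were higher and 2 lower in the pair labelled brain, 3 of 17 higher and 7 lower in that labelled ovary, and 4 of 18 higher and 1 lower in that labelled uterus. Ror2, a Wnt5a receptor, read 1417 on SHT brain, 87.4 on mock brain, 85.9 on SHT ovary, 2188 on mock ovary, 2463 on SHT uterus and 465 on mock uterus. Its 2 highest arrays were those of Wnt5a, a pair that was highest for 14.9% of 11704 genes. Ror2 was within background on mock brain and SHT ovary, the 2 arrays where Wnt5a was lowest. Ptk7, a co-receptor of planar polarity, was higher on SHT brain than on mock brain, at least 4.09-fold. It was lower on SHT ovary than on mock ovary, at least 3.40-fold. Adgra2, a co-activator of Wnt7 signalling in brain vessels, was 3.94-fold higher in the pair labelled brain, 5.50-fold lower in that labelled ovary and 2.58-fold higher in that labelled uterus. Gpc4, a glypican of the cell surface, was at least 4.75-fold higher in the pair labelled brain, at least 3.54-fold lower in that labelled ovary and 3.62-fold lower in that labelled uterus. Gpc3 was at least 2.46-fold higher in the pair labelled brain and at least 3.90-fold lower in that labelled ovary. Ndp, a Fzd4 ligand, was 3.95-fold lower in the pair labelled brain and at least 3.61-fold higher in that labelled ovary.

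Among intracellular signalling genes (28 measured), 2 of 21 were higher and 2 lower in the pair labelled brain, 2 of 21 higher and 4 lower in that labelled ovary, and 2 of 22 higher and 0 lower in that labelled uterus. Nlk, a kinase that acts on TCF factors, was 4.63-fold lower on SHT brain and 7.75-fold higher on SHT ovary than on the mock arrays. Tcf7l2, a nuclear partner of beta-catenin, was higher in the first of these pairs, at least 3.21-fold, and lower in the second, at least 2.16-fold. Tcf7, a related factor, was at least 2.48-fold higher in the pair labelled brain. The co-repressor Tle4 was 2.57-fold lower in the pair labelled brain and 2.41-fold higher in that labelled ovary. In the pair labelled uterus Nkd2, an inhibitor of Dishevelled, was 3.87-fold and Bcl9l, a beta-catenin co-activator, 3.23-fold higher. Bcl9l was 2.25-fold lower in the pair labelled ovary.

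Among planar polarity genes (14 measured), 1 of 8 was higher and 3 lower in the pair labelled brain, 3 of 8 higher and 4 lower in that labelled ovary, and 1 of 10 higher and 0 lower in that labelled uterus. Prickle2, Celsr3 and Prickle1 were 7.53-fold, 6.58-fold and 3.62-fold lower on SHT brain than on mock brain. The same 3 genes were 11.2-fold, 5.01-fold and 3.91-fold higher on SHT ovary than on mock ovary, while Scrib was 4.27-fold, Vangl1 at least 3.70-fold and Daam1 2.71-fold lower. Scrib was 2.08-fold higher in the pair labelled brain, and Daam1 2.29-fold higher in that labelled uterus. Among genes known as Wnt targets (16 measured), 2 of 9 were higher and 2 lower in the pair labelled brain, 2 of 11 higher and 2 lower in that labelled ovary, and 3 of 13 higher and 0 lower in that labelled uterus. Cd44, a hyaluronan receptor, was 6.79-fold, Ccnd1, a cyclin, 2.39-fold and Jag1, a Notch ligand, 2.12-fold higher on SHT uterus than on mock uterus. In the pair labelled ovary, Jag1 was 7.27-fold and Cd44 at least 4.50-fold lower and Tnfrsf19, a receptor of the tumour necrosis factor family, 5.79-fold and Id2 2.11-fold higher. In the pair labelled brain, Jag1 was at least 3.13-fold higher and Tnfrsf19 2.92-fold lower. Tcf7, given above among intracellular signalling genes, is counted here again. Axin2, Nkd1, Rnf43, Znrf3 and Apcdd1 were called in no pair, with Axin2 between 864 and 1468 over the 6 arrays. Lef1 and Sp5 were within background on every array.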

How the data were processed

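RNA from 6 samples was amplified and labelled with Cy5, per the labels' protocols. The authors deposited a table of linear intensity values for 26423 probes. Per the submitters' processing notes limma was used, with no role or version given. Background correction, scaling and any probe filter: not given in the sources used here. Medians of 179 to 224 differ between arrays. Groups came from the labels and stayed so after the marker check.

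Values under an array's 5th percentile of positive values (5.66 to 6.66) were set to it. The log2 of the result was used without scaling. Symbols (20377 probes, 17742 genes) were updated through the RefSeq table of GRCm38.p6. Positions of probes are not given. Genes were named by a fixed rule: every member, and up to 6 genes with the largest difference from each further list. The members and lists were chosen with earlier results of these data known. The limma 3.58.1 fit (R 4.3.3; lmFit, eBayes with trend, two-sided) used genes with a mean above the median probe. Procedures were tested on simulated data in which the SHT and mock arrays of a label were alike apart from set changes. The arrays here were not alike in that way, so the simulation does not show that the limma fit could find an effect in them. Alternatives were quantile normalization, median centring, averaging over probes of one gene, other limits, a 3-fold threshold and, for the limma fit, other filters, priors and tissues.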

Additional observations from a re-analysis of the deposited data

Results flagged for a closer look

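The difference between the SHT and the mock array was called in opposite directions in 2 labelled tissues for 13 Wnt genes. They are among 32 Wnt genes above the limit on at least 1 array, and 33.1% of 11704 such genes were called so. Values are log2 differences relative to the median gene, and bounds where an array was within background. Whether a difference in direction exceeds the spread between mice was not tested, since each group held 1 array, and 4 of the 6 labels go against marker genes. SHT ovary correlated with mock brain at 0.996, SHT brain with mock uterus at 0.981 and SHT uterus with mock ovary at 0.972. Added over the 3 labelled pairs, the SHT minus mock differences of a gene equal its differences within these alike pairs, added likewise. Where the latter are small, a gene higher in 1 labelled pair must be lower in another, whatever SHT does. Opposite directions can thus not be read as responses that differ between tissues. Wnt2 differed by -1.64 in the pair labelled brain, 1.15 in the pair labelled ovary and 1.70 in the pair labelled uterus. Wnt5a had -2.76 in the pair labelled ovary and 1.72 in the pair labelled uterus. Wnt9a differed by -1.33 in the pair labelled brain and 1.44 in the pair labelled uterus. Fzd1 had -1.56 in the pair labelled ovary and 1.67 in the pair labelled uterus. Fzd3 differed by -2.22 in the pair labelled brain, 3.003 in the pair labelled ovary and -1.48 in the pair labelled uterus. Fzd6 had 2.28 in the pair labelled brain, -3.50 in the pair labelled ovary and 1.52 in the pair labelled uterus. Fzd7 differed by 1.30 in the pair labelled brain, -1.30 in the pair labelled ovary and 1.19 in the pair labelled uterus. Lgr5 had 1.84 in the pair labelled ovary and -2.48 in the pair labelled uterus. Rspo2 differed by -1.66 in the pair labelled brain and 1.75 in the pair labelled ovary. Dkk2 had -3.90 in the pair labelled ovary and 5.36 in the pair labelled uterus. Dkk3 differed by -1.26 in the pair labelled brain, 1.39 in the pair labelled ovary and 1.001 in the pair labelled uterus. Sfrp2 had -4.07 in the pair labelled ovary and 4.66 in the pair labelled uterus. Sfrp4 differed by 4.46 in the pair labelled brain, -4.36 in the pair labelled ovary and -1.62 in the pair labelled uterus.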

How the results depend on the processing

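Quantile normalization and centring on the median kept every count of Wnt genes within 1.5 times of the value reported. Of the 41 single differences called, 41 kept their call with centring, 40 with quantile normalization, 37 when probes of one gene were averaged, 30 with the limit at the 99th percentile and 22 with a 3-fold threshold. The 1 that changed sign was Fzd3 in the pair labelled uterus, at 0.16 on the log2 scale with the mean of its probes, one of which is within background. With a 3-fold threshold, the counts of higher and lower Wnt genes were 2 and 3 in the pair labelled brain and 3 and 5 in that labelled ovary, and 6 were higher in that labelled uterus. With the limit at the 90th percentile, 8 were higher in the pair labelled brain, 23 were above background on mock brain and 26 on SHT ovary, and 5 were highest on SHT ovary and mock brain. With it at the 99th percentile, 3 were lower in the pair labelled brain, 2 higher and 6 lower in that labelled ovary, and 15 were above background on mock ovary. With a floor on the pair mean in place of the limit, 9 were higher in the pair labelled brain. A higher limit leaves fewer genes measurable by construction. Shares of all genes under these settings are not given here, so these counts do not show a trait of Wnt genes. SHT uterus and mock ovary were the 2 highest arrays for 10 to 12 Wnt genes under both other scalings, probe averaging and both other limits, and for 6 when genes ranked within background were left out, a restriction chosen after seeing the data. Gene by gene, the 2 highest arrays stayed the same for 27 of 32 Wnt genes after quantile normalization and for 28 of 32 with centring. The limma fit gave 0 Wnt genes under its 9 alternatives. With all 6 arrays it could hardly call any gene, as given above. At an unadjusted p under 0.05 it gave 3 of 31 without the tissue labelled ovary, where 459 of 10854 genes (4.23%) had such a p, and 0 under the others. The limma fit pairs SHT with mock arrays by labelled tissue, and without that block it also gave 0 Wnt genes. A block by replicate number could not be fitted, since each group held 1 array.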
